A study of Homo sapiens with 20 samples.

Results

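The data describe 1876 m6A-enriched regions that lie in the 5′UTR of a protein-coding transcript, out of 43676 regions called in a pair of human bladder cancer cell lines. The position of a region was the median summit of all peaks of the 10 immunoprecipitation libraries that overlap it. A region was kept when this position fell in the 5′UTR of a protein-coding Ensembl canonical transcript (GENCODE 44, hg38) and in the coding sequence (CDS) of no canonical transcript. The regions belonged to 1682 genes, and 125 of them also lay in an exon of another gene, so their gene name is uncertain. For comparison, 13606 regions lay in a CDS and 6356 in a 3′UTR.

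The study used methylated RNA immunoprecipitation and sequencing (MeRIP-seq) to compare T24, a cisplatin-sensitive bladder cancer line, with T24R2, a resistant line derived from it by serial exposure to cisplatin. Both lines carry the genotype label WT, were grown in RPMI with fetal bovine serum and antibiotics, and were harvested at day 3. T24R2 was kept under cisplatin, and each condition is 1 cell line, so resistance, drug exposure and drift of the derived line cannot be told apart. Each line gave 5 libraries precipitated with an antibody against m6A, each with a peak list. Nothing in the labels says whether the 5 libraries of a line came from separate cultures, so p-values measure only the spread between these libraries.

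m6A is written on messenger RNA by the METTL3-METTL14 complex, mainly within the DRACH sequence and mostly near stop codons and in 3′UTRs. In the 5′UTR the modification has been linked to translation that does not depend on the cap-binding complex, for example during heat shock. The first transcribed nucleotide, when it is an adenosine, can carry m6Am, a related mark written by PCIF1 that anti-m6A antibodies also bind, so signal at the start of a transcript may come from either mark and these data do not separate them.

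The 10 lists held 17203 to 33120 peaks, and the longest, T24R2 replicate 5, stood apart from the other T24R2 lists, which held at most 25603. The lists hold no read counts, so the depth behind a peak is unknown. A list gives presence or absence of a peak and its fold enrichment over input. Peak lists carry no strand, and the annotated start of the canonical transcript may not be the start used in these cells. A missing peak can mean less methylation or less of the transcript, and these cannot be told apart without the input libraries, which were not used here.

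Distance from the start was counted along the spliced transcript, with the first base as 1. Regions whose position fell in the first 100 nt were called cap-adjacent, and those further in were called internal. The following 20-base sequences are the annotated starts of transcripts with a cap-adjacent region with a high median rank over the libraries (the first 3) or had one of the lowest p-values between lines (the last 3), all from hg38. The capital marks the first base, which is the site of m6Am when it is an A.
LRRC8D, chr1:89821032-89821051, plus strand: Aattcccctcgttacagagt
CELSR3, chr3:48662867-48662886, minus strand: Gttggagcggcgggaggcgg
SEL1L, chr14:81533834-81533853, minus strand: Aggagactagagcaggaaga
ZNF263, chr16:3283491-3283510, plus strand: Aacttgcgcgctgagatttc
AKT1S1, chr19:49877336-49877355, minus strand: Accattttgctcgagggcat
BASP1, chr5:17217631-17217650, plus strand: Agtagcggcagcggcgacga

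The next sequences are 25-base stretches of internal regions around the DRACH match nearest the region's position, with the match in capitals. DRACH was searched as A, G or T, then A or G, then A, then C, then A, C or T. COL13A1 and NEIL1 had among the highest median ranks, and WSCD1 and CCDC80 had low p-values between lines. SV2B and PAPPA2 were called in T24R2 libraries only and MBP in T24 libraries only, and SLC7A11 was chosen by the study. The PAPPA2 position is a median of summits spread over 1238 bp and is uncertain.
COL13A1, chr10:69802096-69802120, plus strand: actgctctgcAGACActtgaaggga
NEIL1, chr15:75347196-75347220, plus strand: gagttaggtcTGACTgttcgttggt
WSCD1, chr17:6080480-6080504, plus strand: ggtgccatttGAACAcctactggaa
CCDC80, chr3:112640655-112640679, minus strand: tcagcacaagGGACTggcacacaca
SV2B, chr15:91226244-91226268, plus strand: ggcagtcgcaGAACCaaggaatgga
PAPPA2, chr1:176556010-176556034, plus strand: aaattcaaagGAACCaagagaaatt
MBP, chr18:77132652-77132676, minus strand: cttgaagccgAGACCagcctgcccg
SLC7A11, chr4:138242185-138242209, minus strand: tttcacctgtGAACActatagcgct

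Most 5′UTR regions were not at the cap. Of the 1876 regions, 309 (16.5%) were cap-adjacent and 1567 were internal, whereas the first 100 nt made up, averaged over the same regions, 33.2% of the 5′UTR around each. The median distance from the start was 180 nt (quartiles 120 and 312 nt), and the farthest position was 2518 nt in. The fullest interval was 101 to 150 nt, with 425 regions, which is 22.7% of regions in an average 14.2% of the 5′UTR. The first 25 nt held 39 regions, 2.08% of regions in an average 8.56% of the 5′UTR. Close to the limit, the 75 regions at 91 to 100 nt had a median list percentile of 46.5 and the 80 regions at 101 to 110 nt one of 39.1. The list percentile is the rank of a peak's fold enrichment within its own library's list, from 0 to 100, taken as the median over the libraries that called the region.

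**Figure D1:**
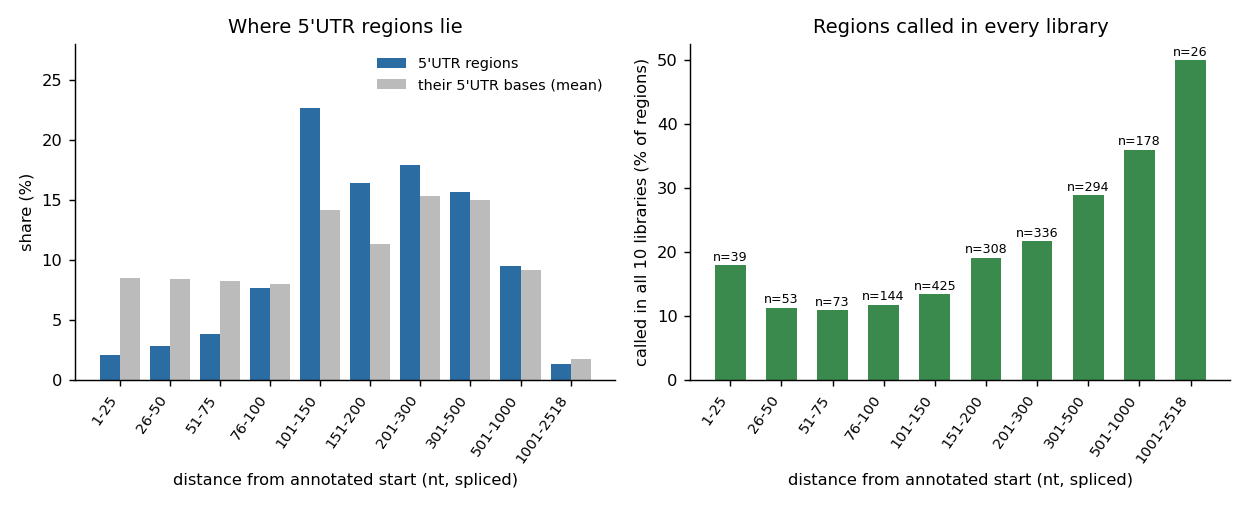
Left, share (%) of the 1876 5′UTR regions (blue) and mean share of the bases of the same 5′UTRs (grey) by distance from the annotated start in nt. Right, share (%) of the regions in each interval that were called in all 10 libraries, with the number of regions above each bar. The first 25 nt hold 39 regions and the fullest interval, 101 to 150 nt, holds 425, and the share called in all libraries is lowest at 51 to 75 nt (11.0%) and highest beyond 1000 nt (13 of 26 regions).

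The 5′UTRs that held regions were long. Transcripts with a region had a median 5′UTR of 346 nt against 136 nt over all 19224 coding canonical transcripts with a 5′UTR, and 2.44% against 38.5% had one of 100 nt or shorter, which can hold no internal region. The median 5′UTR around cap-adjacent regions was 193 nt and around internal regions 412 nt. Positions fell in the first exon for 285 of 309 cap-adjacent (92.2%) and 1140 of 1567 internal regions (72.8%). Exon 2 held 350 internal regions, and later exons 77. The median distance to the start codon was 128 nt for cap-adjacent and 135 nt for internal regions.

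Many regions were wider than the 5′UTR that holds their position. The median width was 199 bp for cap-adjacent and 255 bp for internal regions. In the genome, 197 of the 309 cap-adjacent regions (63.8%) began upstream of the annotated start, by a median of 64 bp among those 197, against 310 of 1567 internal regions (19.8%). Of the 38 cap-adjacent regions called in all 10 libraries, 36 did so, by a median of 328 bp. The CDS of the same transcript was touched by 110 cap-adjacent (35.6%) and 641 internal regions (40.9%). A further 501 regions had their position within 500 bp upstream of a canonical coding start and in no canonical exon, 93 of them within 100 bp, and these are not counted as 5′UTR regions. One of them belonged to SETD7, the positive control of the immunoprecipitation, with a position 278 bp upstream of the start and a peak in all 10 libraries. GAPDH, the negative control, had no 5′UTR region.

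Regions far from the cap were found in more libraries. All 10 libraries shared 38 of the cap-adjacent (12.3%) and 351 of the internal regions (22.4%). A single library gave 109 of the cap-adjacent (35.3%) and 409 of the internal regions (26.1%). The share called in all 10 libraries was 11.0% at 51 to 75 nt, 13.4% at 101 to 150 nt, and 28.9% at 301 to 500 nt, and beyond 1000 nt it was 13 of 26 regions. Over all 5′UTR regions it was 20.7%, close to the 21.9% of all regions but below the 33.1% of CDS and 38.6% of 3′UTR regions. These shares are descriptions, as regions of a gene share its transcript and width was not held equal between intervals.

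For the first base of the transcript, the intervals of cap-adjacent and internal regions overlapped. The intervals treat each region as independent, although the 1567 internal regions came from 1416 genes, and their overlap is not a test. An A stood at the annotated start for 170 of 309 cap-adjacent regions, 55.02% with a 95% Wilson interval of 49.4% to 60.5%. For internal regions it was 51.5% (49.0% to 54.0%), and over all coding canonical transcripts with a 5′UTR it was 50.1% (49.4% to 50.8%). In each library, the median list percentile of called cap-adjacent regions was compared between transcripts that start with A and the others. A minus other was -1.97, 7.87, -2.98, -1.50 and -1.34 points in T24 and -17.5, -22.4, -10.8, -14.4 and -4.01 points in T24R2, in replicates 1 to 5. The T24R2 libraries were all below the T24 libraries, and the difference between lines was not tested. A C followed by 4 pyrimidines, the start of terminal oligopyrimidine transcripts, opened 14 cap-adjacent (4.53%) and 44 internal transcripts (2.81%), against 4.73% of all.

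DRACH occurred more often on the transcript strand than on its reverse complement around 5′UTR positions. Within 50 nt of the position, 75.3% of 5′UTR regions held the motif in the sense direction and 58.7% in the antisense direction, an excess of 16.6 percentage points. The excess was 19.8 points for CDS and 16.5 points for 3′UTR regions. As background, windows of 101 nt from all coding 5′UTRs long enough to hold them gave an excess of -2.69 points at nt 1 to 101 (11815 transcripts) and of 5.11 points at nt 101 to 201 (6708 transcripts). The windows of 5′UTR regions were GC-rich, with a median GC content of 67.3% against 54.5% in CDS and 50.5% in 3′UTR regions.

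The strand excess was lower for cap-adjacent than for internal regions, as it was for the background windows at nt 1 to 101 (-2.69 points) against nt 101 to 201 (5.11 points) of all coding 5′UTRs. Whether the regions differ by more than the background was not tested. Over all regions the excess was 13.3 points for cap-adjacent and 17.2 points for internal regions. The lowest interval was 26 to 50 nt, with 1.89 points over 53 regions, while the 39 regions in the first 25 nt had 28.2 points, so the excess did not simply grow with distance. Among regions called in all 10 libraries, 68.4% of the 38 cap-adjacent regions held DRACH in either direction, an excess of 0, against 21.1 points for the 351 internal regions. Within libraries, the excess of called cap-adjacent regions was 10.5 ± 5.30 points and that of internal regions 18.2 ± 1.51 points (SD, n = 10). Cap-adjacent minus internal was -7.73 ± 5.53 points and was below 0 in 9 of 10 libraries (two-sided exact sign-flip permutation test p = 0.00586, 0.0117 adjusted over 4 within-library comparisons). The exception was T24 replicate 4. The motif is fixed by the sequence of a region and the libraries share many regions. The libraries are therefore not independent for this measure, and the p-value does not measure the spread over regions. Without the regions that reach 100 bp or more upstream of the start, an alternative chosen after seeing the data, the difference was -3.74 points (exact permutation p = 0.141), and with the limit at 50 nt it turned to 3.71 points (exact permutation p = 0.0215).

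In fold enrichment the 5′UTR regions ranked below 3′UTR regions. The median list percentile per library was 49.3 ± 1.84 for 5′UTR, 49.1 ± 1.55 for CDS and 55.3 ± 2.02 for 3′UTR regions (SD, n = 10 libraries). The 5′UTR minus 3′UTR difference was -5.98 ± 2.58 points and below 0 in 10 of 10 libraries (exact sign-flip permutation p = 0.00195, the smallest this test can give, 0.00781 adjusted). The 5′UTR minus CDS difference was 0.230 ± 2.04 points (exact permutation p = 0.746, adjusted 0.746), above 0 in 6 libraries and below in 3. It turned to -1.62 points with the strongest summit (exact permutation p = 0.0273) and to -2.03 points without the regions that reach 100 bp or more upstream (exact permutation p = 0.00391), so its direction depended on the position and the regions used. Both comparisons were added after the data were seen.

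Called cap-adjacent regions ranked above internal ones in 8 of 10 libraries. In T24 the median list percentile of cap-adjacent regions was 60.2, 59.97, 57.4, 56.2 and 54.4 in replicates 1 to 5, and that of internal regions 49.2, 48.6, 44.4, 50.5 and 48.9. In T24R2 it was 56.2, 44.6, 58.7, 47.2 and 55.9 for cap-adjacent and 47.3, 47.2, 46.9, 52.0 and 48.7 for internal regions. All T24 libraries and 3 T24R2 libraries had the cap-adjacent median above the internal one, while T24R2 replicates 2 and 4 had it below. The mean difference was 6.72 ± 6.10 points (exact sign-flip permutation p = 0.0137, adjusted 0.0182). It was 2.43 points without the regions that reach 100 bp or more upstream (exact permutation p = 0.422) and 1.68 points when a library's peaks had to cover 50% of a region (exact permutation p = 0.385). With the strongest summit it was 3.12 points (exact permutation p = 0.0977), and with the limit at 200 nt it turned to -1.25 points, above 0 in 3 libraries and below in 7 (exact permutation p = 0.211).

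**Figure D2:**
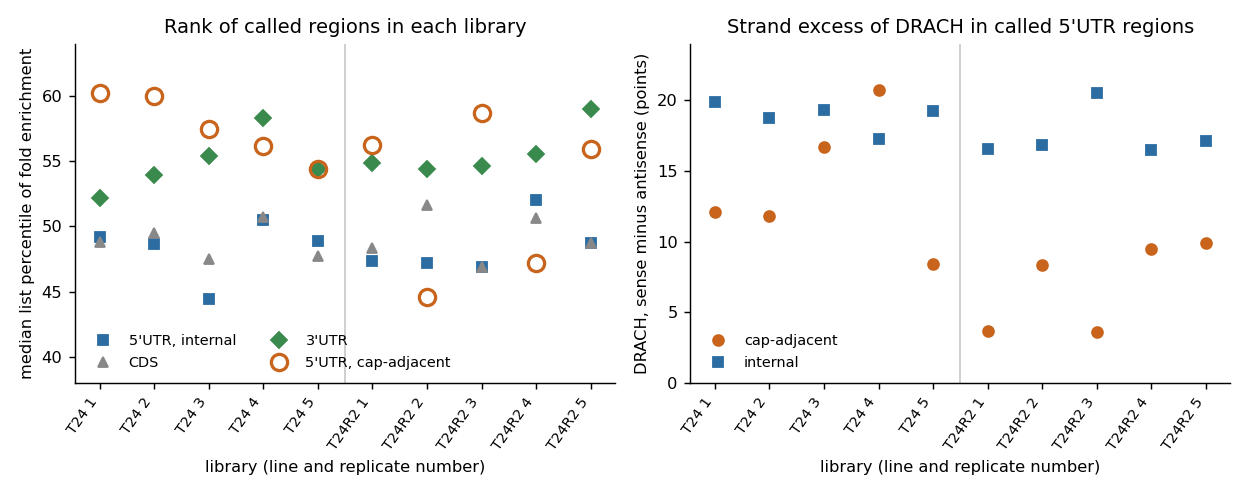
Left, median list percentile of fold enrichment of called regions in each of the 10 libraries, for cap-adjacent (orange circles) and internal (blue squares) 5′UTR regions, CDS (grey triangles) and 3′UTR regions (green diamonds); the axis does not start at 0. Right, DRACH strand excess in percentage points for cap-adjacent and internal regions; the cap-adjacent value is below the internal one in 9 of 10 libraries, the exception being T24 replicate 4.

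Between the lines, none of 7 per-library measures of the 5′UTR regions passed after adjustment for 7 tests (the smallest adjusted exact permutation p was 0.194). The number of 5′UTR regions called was 738, 739, 874, 951 and 876 in T24 and 864, 856, 823, 1017 and 1340 in T24R2, and the lines overlapped (difference 144, exact permutation p = 0.230). The difference was 54.4 without T24R2 replicate 5 and turned to -38.8 with lists of equal length. The 5′UTR share of all called regions was 4.63% ± 0.441 in T24 and 4.06% ± 0.207 in T24R2, each over 5 libraries with the SD (exact permutation p = 0.0556, adjusted 0.194). T24 replicate 1, at 3.89%, lay below every T24R2 library, and the other T24 libraries lay above every T24R2 library. Without that library the difference was -0.756 points (exact permutation p = 0.00794, not adjusted).

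The place and rank of called 5′UTR regions were compared in the same way. The cap-adjacent share averaged 12.9% ± 1.19 for T24 against 13.7% ± 0.669 for T24R2 (exact permutation p = 0.238). The median distance was 199 ± 4.93 nt in T24 and 204 ± 7.56 nt in T24R2 (exact permutation p = 0.246). With lists cut to the same number of peaks the distance difference was 14.4 nt (exact permutation p = 0.00794), higher in T24R2. The median list percentile was 49.8 ± 2.05 in T24 and 48.8 ± 1.70 in T24R2 (exact permutation p = 0.452). The cap-adjacent minus internal difference was 9.33 ± 3.49 points in T24 and 4.10 ± 7.37 points in T24R2 (exact permutation p = 0.222). The direction of this last difference, -5.22 points in T24R2 minus T24, depended on the processing. It was -6.76 points with the strongest summit (exact permutation p = 0.0397) and -11.3 points without the regions that reach 100 bp or more upstream (exact permutation p = 0.0476). It turned to 3.14 points with −log10 q of at least 5, 6.54 points with lists of equal length, 2.58 points when peaks had to cover 50% of a region and 1.83 points with the limit at 50 nt.

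The DRACH strand excess of called 5′UTR regions averaged 18.3 ± 0.587 points over the T24 and 16.1 ± 1.28 points over the T24R2 libraries (± SD). The difference was -2.20 points (exact permutation p = 0.0317, 0.194 adjusted over 7 tests). The T24 libraries lay between 17.8 and 19.0 points and T24R2 replicate 3, at 18.2, fell inside that range, with the other T24R2 libraries between 14.9 and 16.1. With lists cut to the same number of peaks the difference was -1.32 points (exact permutation p = 0.246), and the number of regions called over all classes moved with the line (14944 to 20658 in T24, 21061 to 30599 in T24R2).

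The calls themselves were mostly shared. A peak was found in both lines for 1067 regions, in T24 libraries only for 290 and in T24R2 libraries only for 519, and 518 of these single-line regions rested on 1 library. In all, 389 regions of 376 genes were called in all 10 libraries. A peak in 5 of 5 T24R2 and 0 of 5 T24 libraries was found for 23 5′UTR regions (1.23%), where the background over all 43676 regions was 3.02%. The reverse pattern held for 18 regions (0.959%) against a background of 1.05%. Of the 309 cap-adjacent regions, 2 (0.647%) had the first pattern (TMED5 and NOXO1) and 2 (0.647%) the second (GJA3 and WDR36). The shares of internal regions were 1.34% and 1.02%, and the difference was not tested. The TMED5 region reached 629 bp upstream of the annotated start. The NOXO1 position also lies in another gene's exon, and its summits spread over 665 bp, so its cap-adjacent label is uncertain. A region with 5 against 0 libraries has a two-sided Fisher's exact p of 0.00794, which is 0.195 after Benjamini-Hochberg adjustment over all regions, so 0 regions of any class passed. Unadjusted, 83 5′UTR regions had p under 0.05 with more T24R2 libraries and 39 with more T24 libraries (3106 and 915 over all regions).

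**Figure D3:**
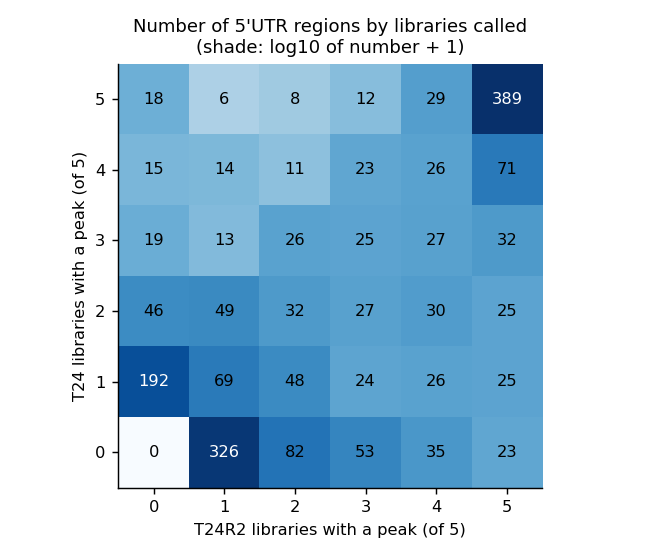
Number of 5′UTR regions by how many of the 5 T24 libraries (vertical axis) and of the 5 T24R2 libraries (horizontal axis) held a peak, with shade by the log10 of the number plus 1. The largest cell is the 389 regions called in all 10 libraries, followed by regions called in 1 T24R2 library (326) or 1 T24 library (192).

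The 23 regions called in T24R2 libraries only belonged to 22 genes, with a median distance of 390 nt from the start. Which regions had this pattern depended on the processing. With T24R2 replicate 1 left out there were 35, with lists of equal length 12 (10 of them among the 23), and with peaks covering 50% of a region 28 (7 of them among the 23). The strongest of the 23 was SV2B, a synaptic vesicle glycoprotein (chromosome 15, 91225883 to 91226637), with list percentiles of 97.1, 98.8, 93.3, 94.95 and 95.9 in T24R2 replicates 1 to 5 and fold enrichments of 13.5 to 24.5. These values put it near the top of every T24R2 list, with no peak in any T24 list. ANKRD16, an ankyrin repeat protein, followed with list percentiles of 79.1 to 91.4. POU3F3, a POU-domain transcription factor, ranged from 64.7 to 77.9. The voltage-gated potassium channel gene KCNC4 ranged from 49.3 to 93.4, and the leak potassium channel gene KCNK3 from 47.0 to 94.8. PAPPA2, a protease that cleaves insulin-like growth factor binding proteins, ranged from 47.9 to 92.4, and ATRNL1 from 52.3 to 85.5. Peak summits spread over 1238 bp for PAPPA2 and 1270 bp for KCNC4, and both regions reach the CDS. Their positions are medians of scattered summits, so their place in the 5′UTR is uncertain. SOGA3 had 2 such regions, both in exons of another gene, of which the stronger ranged from 56.2 to 79.5.

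The 18 regions called in T24 libraries only belonged to 18 genes. There were 17 with lists of equal length (10 of them among the 18) and 9 with peaks covering 50% of a region (7 of them among the 18). C1QL4, a secreted C1q-like protein, had list percentiles of 90.03, 85.8, 79.1, 69.8 and 77.3 in T24 replicates 1 to 5, the highest minimum of the group. MBP, which encodes myelin basic protein, ranged from 58.9 to 85.1, and NTSR1, the neurotensin receptor, from 43.8 to 86.6. CGB7, a beta subunit gene of chorionic gonadotropin with near-identical neighbours, ranged from 41.9 to 86.3 and is uncertain for that reason. SOX21, a transcription factor, ranged from 37.6 to 68.6. The connexin gene GJA3 ranged from 30.8 to 97.1, the orphan receptor gene GPR173 from 30.8 to 89.6 and the lysophosphatidic acid receptor gene LPAR6 from 28.8 to 82.0. Of these 8, GJA3 spread most widely between libraries. When peaks had to cover 50% of a region, SV2B, ATRNL1, PAPPA2, C1QL4, SOX21 and LPAR6 still differed by 5 libraries. SOGA3, KCNC4, MBP and CGB7 then differed by 4 libraries, and ANKRD16, POU3F3, KCNK3, NTSR1, GJA3 and GPR173 by 1 to 3.

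**Figure D4:**
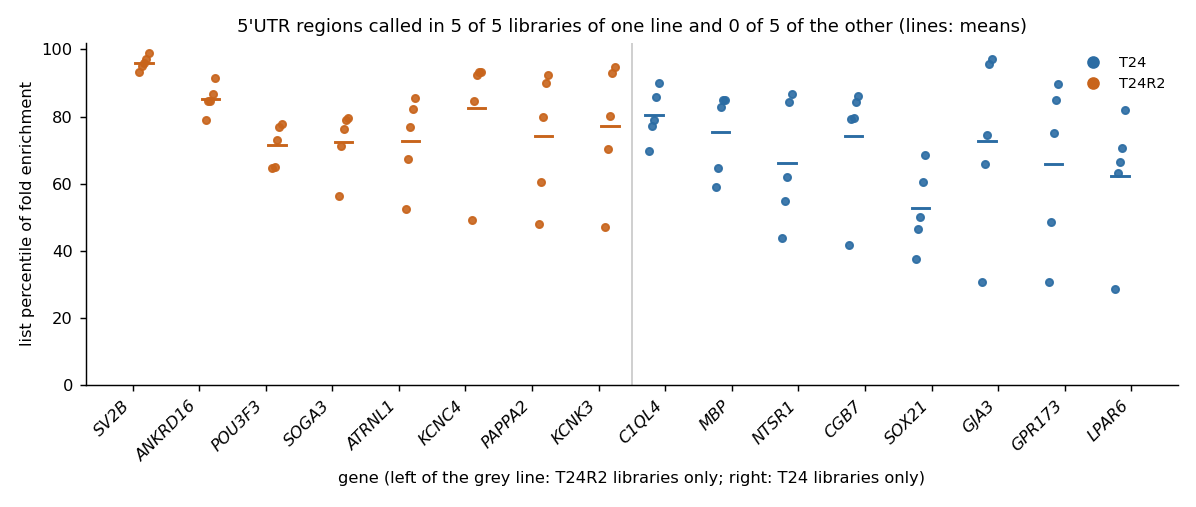
List percentile of fold enrichment in each library that called the region, for the 8 5′UTR regions per direction with the highest lowest value; points are libraries and short lines are means. SV2B sits above 93 in all 5 T24R2 libraries, whereas GJA3 and GPR173 spread from 30.8 upwards in T24.

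Other exonic regions of the same genes were also counted. Of the 23 regions called in T24R2 libraries only, 4 (17.4%) were in genes that had a further exonic region with peaks in all 10 libraries, against 58.2% of all 5′UTR regions. For 10 of the 23 the same gene had another exonic region called in T24R2 libraries only. Of the 18 regions called in T24 libraries only, 3 (16.7%) were in genes with an exonic region called in all libraries, and 4 had another T24-only region. How often other genes hold a line-only region was not computed, so the counts of 10 and 4 have no background. Whether the transcripts differ in amount between the lines was not tested. BDNF and TMED5 were among the 4 genes with a region elsewhere in all 10 libraries (ZNF142 and SLC8B1 were the others).

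Among the 389 5′UTR regions called in all 10 libraries, fold enrichment was compared between lines by the shared rank, which is the percentile among the 9577 regions of every class called in all libraries. limma called 2 5′UTR regions higher in T24R2 (0.689% of all 9577 regions were) and 0 higher in T24 (0.501% of all were). Unadjusted, 21 5′UTR regions had p under 0.05 in limma with a higher rank in T24R2 and 29 with a higher rank in T24. Together these were 12.9% of the 389, close to the 13.8% of all 9577 regions (680 higher in T24R2 and 637 in T24). On the log2 scale of fold enrichment limma called 1 and 0 (46 and 30 over all 9577 regions). Unadjusted, the log2 counts were 25 and 31, for which no share over all regions is given here. The median difference over the 389 regions was -3.05 points, T24R2 minus T24, against 0.0700 points over all 9577.

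WSCD1, which encodes a WSC-domain membrane protein, rose in T24R2. Its region (chromosome 17, 6080222 to 6081080) is internal, 400 nt from the start, in exon 2, and its position also lies in an exon of another gene. Its peak summits spread over 661 bp. The shared rank was 4.71, 3.22, 8.21, 9.91 and 28.9 in T24 replicates 1 to 5 and 56.2, 41.0, 52.4, 64.3 and 71.0 in T24R2 replicates 1 to 5. The lines did not overlap, and T24 replicate 5 was the highest T24 library. The difference was 46.0 points (SE 8.04, limma adjusted p = 0.0218), and the log2 fold enrichment differed by 1.24 (limma adjusted p = 0.0160). Leaving out single libraries gave limma adjusted p-values from 0.0151 to 0.0597, above 0.05 without T24 replicate 3 (0.0554) or 4 (0.0518) or T24R2 replicate 4 (0.0597) or 5 (0.0507). With every list cut to equal length it was 0.0505.

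ZNF263, a zinc finger transcription factor, also rose in T24R2. Its region (chromosome 16, 3282512 to 3284182) is cap-adjacent, 82 nt from the start, but 979 of its bases lie upstream of the annotated start. Its peak summits spread over 1562 bp, so the distance is a median of scattered summits and the cap-adjacent label is uncertain. The shared rank was 42.4, 17.5, 4.88, 21.6 and 33.6 in T24 and 69.5, 77.0, 70.8, 45.8 and 85.2 in T24R2, without overlap. The difference was 45.6 points (SE 9.45, limma adjusted p = 0.0400). With single libraries left out the limma adjusted p ranged from 0.0362 to 0.0983 and stayed under 0.05 only without T24 replicate 1 or T24R2 replicate 4, and on the log2 scale it was 0.0708. With lists of equal length it was 0.0610.

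No 5′UTR region passed with a higher rank in T24, and the 5 with the lowest p are given by their values. TMCC2 had shared ranks of 40.5 to 79.3 in T24 and 7.19 to 38.5 in T24R2, without overlap (limma adjusted p = 0.103). AKT1S1, which encodes the mTORC1 inhibitor PRAS40, had 71.3, 78.4, 10.1, 66.2 and 45.3 in T24 and 13.8, 16.97, 11.5, 21.3 and 8.004 in T24R2. T24 replicate 3 lay among the T24R2 libraries, and the limma adjusted p was 0.138. Without that library it was 0.0230, but T24 replicate 3 is the one that went against the difference. A lower p then follows from the choice of library. For ZFP41 the T24 ranks were 78.5 to 97.9 and the T24R2 ranks 8.40 to 92.2 (limma adjusted p = 0.144). T24R2 replicate 5 alone lay inside the T24 range. The ZFP41 region was 2503 bp wide with peak summits spread over 1984 bp. Its position also lies in an exon of another gene, so it is uncertain. CCDC80 (limma adjusted p = 0.157) and BASP1 (limma adjusted p = 0.163) overlapped between lines, with means of 83.0 ± 18.4 against 47.7 ± 16.9 and 93.4 ± 8.53 against 68.8 ± 10.5 (SD, n = 5 each).

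**Figure D5:**
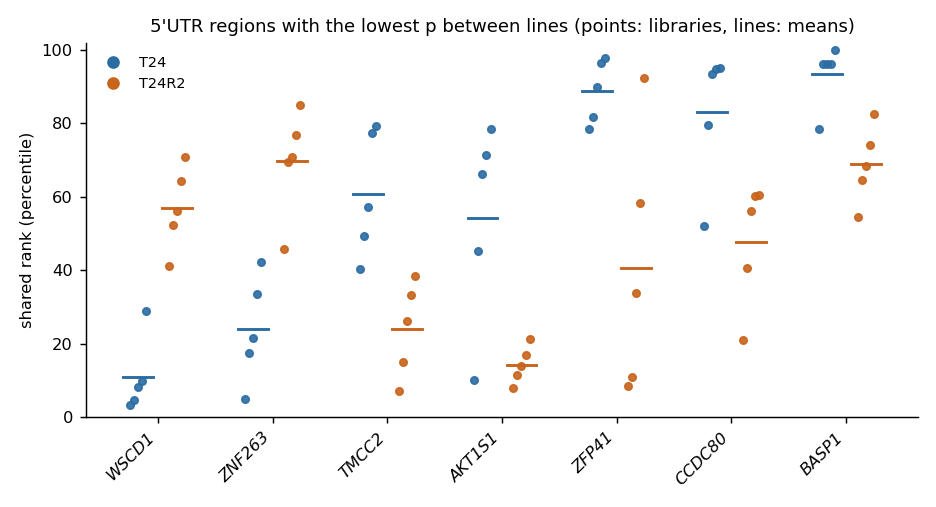
Shared rank (percentile among the 9577 regions called in all libraries) of 7 5′UTR regions in each library of T24 (blue) and T24R2 (orange); points are libraries and short lines are means. WSCD1 and ZNF263 passed the limma test, and the other 5 did not.

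Of the 6 highest-ranked cap-adjacent regions shared by the 10 libraries, all but that of SEL1L began at least 396 bp upstream of the annotated start. IL7, the lymphoid cytokine gene, had a median list percentile of 98.0, with its position 5 nt from the start and 396 bp of the region upstream. The position also lies in another gene's exon, as do those of MIB2 (95.7), an E3 ubiquitin ligase, and of the gene listed as ENSG00000198211 (95.4). CELSR3, an atypical cadherin, had 95.3 with 1080 bp of its region upstream. SEL1L, an adaptor of endoplasmic reticulum-associated degradation, had a median of 94.5 but 31.9 in T24 replicate 3. The lowest value of MIB2 was 28.6, in T24R2 replicate 1. LRRC8D, a subunit of the volume-regulated anion channel through which cisplatin can enter cells, had 90.96, with list percentiles of 73.8, 90.7, 85.2, 94.6 and 97.3 in T24 and 88.8, 93.1, 91.2, 87.9 and 98.4 in T24R2. The lines overlapped for LRRC8D. Of these 6 regions 3 held DRACH in the sense direction within 50 nt, against 68.4% of the 38 cap-adjacent regions called in all 10 libraries. Peak summits spread over 2843 bp for ENSG00000198211, 1873 bp for CELSR3, 719 bp for LRRC8D and 702 bp for IL7. The spread was 142 bp for MIB2 and 72 bp for SEL1L. Where summits lay far apart, the position is a median of scattered summits and the cap-adjacent label is uncertain.

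The 6 highest-ranked internal regions all held DRACH in the sense direction within 50 nt, as did 81.5% of the 351 internal regions called in all 10 libraries. CLN8, an endoplasmic reticulum cargo receptor, had a median list percentile of 99.5 at 206 nt from the start. PCDH7, a protocadherin, had 98.6 at 777 nt, and both positions also lie in another gene's exon. ZC3H18, which links the nuclear cap-binding complex to RNA processing, had 98.4 at 159 nt. NEIL1, a DNA glycosylase of base excision repair, had 98.1 at 180 nt. COL13A1, a transmembrane collagen, had 98.0 at 211 nt and had the highest minimum of these 12 regions, with list percentiles of 92.8 to 99.9 and fold enrichments of 15.5 to 28.8. PLEKHO1 had 98.0 at 133 nt but 55.5 in T24 replicate 5. The lowest values of PCDH7 and NEIL1 were 46.6 in T24 replicate 5 and 46.9 in T24 replicate 2. Those of CLN8 and ZC3H18 were 72.0 in T24 replicate 3 and 62.7 in T24R2 replicate 3. Peak summits spread over 1010 bp for PCDH7 and 597 bp for COL13A1.

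Of 11 gene lists on m6A, translation, stress, repair and bladder cancer, 9 had at least 1 5′UTR region, and no region on a list passed a test between lines after adjustment over all regions. Over all coding genes with an annotated 5′UTR, 1682 of 19199 had a 5′UTR region (8.76%). Among the 9213 coding genes with any exonic region the share was 18.3%. AP-1 and immediate early factors had them in 9 of 30 genes (30.0%), all internal, 4 of them called in all 10 libraries. Among the 28 of these genes with any exonic region the share was 32.1%. FOSB, an AP-1 subunit, ranked highest, with list percentiles of 73.2, 81.2, 95.6, 87.0 and 83.1 in T24 and 57.7, 74.8, 75.6, 84.6 and 88.1 in T24R2. The lines overlapped (shared rank difference -15.7, SE 8.43, limma adjusted p = 0.458). FOSL2, DUSP1, which encodes a MAP kinase phosphatase, and MYC were also called in all 10 libraries, with median list percentiles of 39.2, 12.6 and 9.81. EGR1 had a peak in 3 T24 and 4 T24R2 libraries, and ATF3, which is also a target of the integrated stress response, in 4 of each.

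Chromatin regulators mutated in bladder cancer had 10 regions in 7 of 23 genes (30.4%). Among the 20 of these genes with any exonic region the share was 35.0%, against 18.3% over all coding genes with one. CHD7, a chromatin remodeller, had 2 regions, at 126 and 353 nt, each called in 4 T24 and 0 T24R2 libraries (two-sided Fisher's exact p = 0.0476 each, unadjusted). CREBBP, a histone acetyltransferase, had 1 with peaks in no T24 and 4 T24R2 libraries (unadjusted Fisher's exact p = 0.0476). The histone methyltransferase gene KMT2D had regions called in 1 and 4 and in 3 and 5 libraries. ASXL1, a Polycomb-associated factor, was called in all 10 libraries. Each of these 4 genes had another exonic region called in every library.

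The other lists held at most 5 5′UTR regions each. The share of genes with one was 13.6% for heat shock and 12.9% for ferroptosis, against 8.76% over all coding genes. Stress response had 10.5%, m6A 8.70%, initiation factors 6.06% and repair 4.88%. Among genes with any exonic region, heat shock (23.1%) and ferroptosis (25%) lay above the 18.3% over all coding genes. Initiation factors (15.4%), stress response (11.8%), m6A (9.09%) and repair (7.41%) lay below. Cytosolic ribosomal protein genes had no 5′UTR region in 79 genes, and 9 of the 79 had any exonic region. Heat shock chaperones and HSF1 had 3 regions, of which BAG3 and DNAJB4, both co-chaperones, were called in all 10 libraries with median list percentiles of 44.8 and 33.5. The region of HSP90B1 was called in 2 T24 libraries. Integrated stress response genes had 2 (ATF3 and TRIB3), cap-dependent initiation factors 2 (EIF4G3 and EIF5B), and writers, erasers and readers of m6A and m6Am 2 (IGF2BP1 and YTHDF3) in 23 genes. Genes of cystine, glutathione and ferroptosis had 5 regions in 4 of 31 genes. The strongest was GCLC, the catalytic subunit of glutamate-cysteine ligase, at exactly 100 nt from the start and called in 4 T24 and 5 T24R2 libraries. Nucleotide excision and crosslink repair genes had 2 in 41 genes, of which FANCG, a Fanconi anaemia core protein, was called in 0 T24 and 4 T24R2 libraries (unadjusted Fisher's exact p = 0.0476).

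Of 14 transcripts chosen by the study, 3 had a 5′UTR region by this rule. SLC7A11, the cystine importer, had its region 160 nt from the start (chromosome 4, 138242170 to 138242269), with list percentiles of 15.3 and 20.6 in T24 replicates 3 and 4 and 0.984 in T24R2 replicate 5. It was low in its list wherever it was called. SLC37A4, the glucose-6-phosphate transporter, had its region 146 nt from the start, with list percentiles of 8.20 to 32.2 in the 5 T24 libraries and of 55.9 and 44.1 in T24R2 replicates 2 and 3. SBNO2 had its region 106 nt from the start, called in 2 T24 and 5 T24R2 libraries. None passed the test of presence (Fisher's exact p = 1 for SLC7A11 and 0.167 for the other two). As the study chose these transcripts on these samples, they are not independent evidence.

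Most genes had 1 region, 1503 of 1682, while 165 had 2, 13 had 3 and 1 had 4. The gene with 4 was ZNF75D, a zinc finger gene with a 5′UTR of 2732 nt, whose regions at 200, 441, 805 and 2518 nt were called in 8, 1, 10 and 1 libraries. In TEAD1, a Hippo pathway transcription factor, regions in exons 1, 2 and 3 at 205, 456 and 614 nt were called in all 10 libraries. The region at 456 nt had shared ranks of 4.59 to 15.7 in T24 and 22.4 to 95.6 in T24R2, without overlap (difference 41.9, SE 11.8, limma adjusted p = 0.127), while the lines overlapped at 205 and 614 nt. DYRK1A, a kinase gene, had regions at 300, 679 and 885 nt, of which the one at 679 nt was called in all libraries. GPBP1 had its cap-adjacent region at 85 nt called in 6 libraries and its regions at 938 and 1120 nt in all 10. The others with 3 were ANKRD11, ANKRD28, ANKRD34A, BCL9L, EVA1A, FHIP1A, GOLGA8A, KANK2, PPARD and TNRC6C. The farthest regions called in all libraries were those of ZNF83 at 2200 nt, MID1IP1 at 1762 nt and NUTM2E at 1607 nt, with median list percentiles of 66.2, 82.2 and 61.1.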

How the data were processed

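For 10 MeRIP libraries (5 T24, 5 T24R2) the authors aligned reads with STAR 2.7.0 to hg38, kept unique reads without duplicates (SAMtools 1.10) and called peaks per library over input (MACS2 3.0.0a6, extension 100 nt). The deposited lists give fold enrichment over input, a linear ratio, and −log10 q, at least 2. The deposited merged regions equalled the union of the 10 lists. Depth is unknown. A region was called in a library when a peak overlapped it by 1 bp, and its highest peak counted. Comparisons used two-sided exact permutation tests over libraries, Fisher's exact test and limma 3.58.1 (R 4.3.3) across 9577 regions, with Benjamini-Hochberg adjustment, and were tested on simulated data. Named were the 8 line-only regions per direction with the highest minimum, limma calls or the 5 lowest p, the 6 highest cap-adjacent and internal regions, list genes, genes with 3 regions or more, and the 3 farthest regions. Members and lists were chosen with earlier results of these data known. Alternatives covered peaks counted, overlap, positions, shared genes, limits, motif, window, scale, replicate block and single libraries. Columns with the deposited score were not used. GENCODE 44 stood in for the release the authors used. One gene on a list is not reported here.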

Additional observations from a re-analysis of the deposited data

Results flagged for a closer look

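In 38 groups of 5 libraries examined, 2 values stood apart from the other 4 by more than Dixon's 95% limit, where chance gives about 1.9. The shared rank of the WSCD1 region was 28.9 in T24 replicate 5 and 3.22 to 9.91 in the other T24 libraries. The shared rank of the BASP1 region was 78.4 in T24 replicate 4 and 96.2 to 99.9 in the others.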

How the results depend on the processing

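Over the alternatives, 209 values of the comparisons kept their direction and their side of 0.05 (or stayed within 1.5 times for counts), 14 reversed, 9 passed 0.05 anew, 8 no longer passed and 25 counts moved further. Differences between lines are T24R2 minus T24. With peaks of −log10 q of at least 5, the 5′UTR share was -0.506 points (exact permutation p = 0.0397), the cap-adjacent share -0.286 points, cap-adjacent minus internal rank 3.14 points and the DRACH excess -2.09 points (p = 0.0794), while 10 regions were called in T24 only and 1 ranked higher in T24R2. With every list cut to equal length, the number of regions was -38.8, the share -0.476 points (exact permutation p = 0.0476), the cap-adjacent share -0.583 points, the distance 14.4 nt (p = 0.00794), the rank difference 6.54 points and the DRACH excess -1.32 points (p = 0.246), with 12 regions called in T24R2 only and 0 ranked higher. With 50% of a region covered, the rank difference was 2.58 points between lines and 1.68 within libraries, 5′UTR minus CDS rank -1.47, and 9 regions were called in T24 only. With the strongest summit, the share was -0.635 points (exact permutation p = 0.0397), the rank difference -6.76 between lines (p = 0.0397) and 3.12 within libraries (p = 0.0977), 5′UTR minus CDS rank -1.62 (p = 0.0273), and 1 region ranked higher, as without shared regions and on the log2 scale. Without regions that reach upstream (chosen after seeing the data), the values were -11.3 points between lines (exact permutation p = 0.0476), 2.43 within libraries, -3.74 for DRACH, -2.03 against CDS (p = 0.00391) and 1 region. The limit at 50 nt gave 1.83 points between lines and 3.71 for DRACH (exact permutation p = 0.0215), and at 200 nt a cap-adjacent share of -1.76 points and a within-library rank difference of -1.25. A 25 nt window gave a DRACH difference of -2.08 (exact permutation p = 0.0635). With at least 4 against at most 1 library, 109 and 53 regions were called in T24R2 and T24. These were 5.81% and 2.83% of 5′UTR regions, against 8.36% and 2.50% of all regions. The cause of these changes was not tested.

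Same-numbered libraries did not deviate together (r from -0.0357 to 0.112 over 9577 regions). A low correlation cannot show that they shared no culture, day or batch, so whether the numbers pair the samples is unknown. Under the replicate block limma called 0 5′UTR regions higher in T24R2, and the paired DRACH difference of -2.20 points had the smallest p 5 pairs allow (exact permutation p = 0.0625).

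Leaving out single libraries gave 54.4 to 184 for the number of regions, -0.756 to -0.487 points for the share, 0.465 to 1.23 points for the cap-adjacent share (exact permutation p = 0.0397 without T24 replicate 4), 3.05 to 8.05 nt for the distance (p = 0.0397 without T24R2 replicate 5), -1.72 to -0.431 for the rank, -7.16 to -2.99 for the rank difference between lines and -2.74 to -1.92 for the DRACH excess. Within libraries it gave 6.01 to 7.999 for rank, -8.97 to -6.70 for DRACH, -0.0698 to 0.772 against CDS, below 0 without T24 replicate 1, and -6.60 to -5.62 against 3′UTR. Regions called in T24R2 only numbered 24 to 35, the most without T24R2 replicate 1, and in T24 only 18 to 24. limma called 0 to 2 regions higher in T24R2, 0 without T24 replicate 3 or 4 or T24R2 replicate 5, and 0 to 1 higher in T24, 1 without each of the same 3 libraries. Depth is unknown, so an absent peak is not shown to be an absent mark.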
